A study of Mus musculus with 9 samples.

Results

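Krüppel-like factors (Klf) and the Nr4a nuclear receptors are transcription factors, some of which macrophages switch on quickly after a stimulus. Their mRNA was compared here between testis, epididymis and brain macrophages. The genes were Klf2, Klf3, Klf4, Klf6, Klf10, Klf13, Nr4a1, Nr4a2 and Nr4a3, 9 in all, taken by symbol. Values are given for 7 of them, out of 15434 genes measured, and all 7 passed the filter on low values. Klf6 and Klf10 were not analysed here. The genes were chosen by their normalised read counts in these same libraries, so those levels are a description and carry no test. Tests are given for other genes of the same families, for their regulators and for their targets.

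The samples were macrophages of C57BL/6J mice taken from 3 organs, testis, epididymis and brain, each sequenced as 3 RNA libraries, 9 in all. The labels give no allele, transgene, treatment or culture in any group, and age is not given in the labels used here. Tissue was digested with collagenase and DNase, the sort gate was live, CD45+, CD11b+ and F4/80+ with Ly6C- and CD11c-, and the labels call the brain cells microglia, the resident macrophages of the brain. All 3 libraries of an organ carry 1 mouse number, a different one for each organ, so organ and mouse cannot be told apart. Whether those libraries came from separate animals is not given, so every spread and p-value measures only differences between these libraries, which may be technical. The protocol has testis and epididymis cell suspensions pooled, and it could not be worked out if cells of both organs ever shared a tube, which bears on every testis against epididymis value.

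The Klf proteins bind GC-rich and CACCC sequences through zinc fingers at their C-terminus. Klf2 and Klf4 are induced through the kinase ERK5 and MEF2 factors and restrain inflammatory genes in monocytes and macrophages, while Klf3 represses genes by recruiting CtBP and Klf13 works with the Sin3A corepressor. Klf6 and Klf10 are quick responders, Klf10 to TGF-beta. The Nr4a receptors need no known ligand for activity, bind the NBRE sequence as monomers, and are immediate early genes induced through CREB and MEF2. Nr4a1 is required for Ly6C-low monocytes in mice and limits inflammatory gene expression in macrophages.

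The promoters are shown because quick induction of Nr4a genes is known to run through cAMP response elements (CRE), and because the 3 Nr4a promoters share a feature that the choice of genes did not use. Each sequence is the 250 bases before the RefSeq transcript start on GRCm38.p6, 5′ to 3′ on the gene's strand. Capitals mark the CRE half-site TGACG, written CGTCA where it lies on the other strand, and matches to the MEF2 consensus. The first 3 sequences are chr15:101266596-101266845 (plus strand) for Nr4a1, chr2:57124004-57124253 (minus strand) for Nr4a2 and chr4:48045055-48045304 (plus strand) for Nr4a3. The other 2 are chr8:72318812-72319061 (plus strand) for Klf2 and chr4:55532476-55532725 (minus strand) for Klf4.
Nr4a1: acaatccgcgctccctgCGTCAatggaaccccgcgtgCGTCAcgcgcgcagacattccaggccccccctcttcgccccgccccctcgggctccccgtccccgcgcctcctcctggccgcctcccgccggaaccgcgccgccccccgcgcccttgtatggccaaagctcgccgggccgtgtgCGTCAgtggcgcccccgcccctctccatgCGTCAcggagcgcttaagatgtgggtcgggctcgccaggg
Nr4a2: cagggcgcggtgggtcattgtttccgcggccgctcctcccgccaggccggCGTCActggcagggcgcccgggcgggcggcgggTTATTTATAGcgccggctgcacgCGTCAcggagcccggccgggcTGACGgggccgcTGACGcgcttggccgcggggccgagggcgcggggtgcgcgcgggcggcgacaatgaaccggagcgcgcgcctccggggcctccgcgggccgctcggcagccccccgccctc
Nr4a3: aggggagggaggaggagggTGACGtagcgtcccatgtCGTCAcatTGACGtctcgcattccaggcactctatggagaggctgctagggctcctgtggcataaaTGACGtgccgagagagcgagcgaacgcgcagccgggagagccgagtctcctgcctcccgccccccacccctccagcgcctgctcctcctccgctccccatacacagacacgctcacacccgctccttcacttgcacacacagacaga
Klf2: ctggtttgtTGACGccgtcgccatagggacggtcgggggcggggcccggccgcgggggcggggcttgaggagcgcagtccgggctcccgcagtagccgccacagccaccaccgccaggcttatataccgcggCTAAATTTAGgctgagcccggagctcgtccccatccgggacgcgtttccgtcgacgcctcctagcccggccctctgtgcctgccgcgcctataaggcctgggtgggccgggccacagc
Klf4: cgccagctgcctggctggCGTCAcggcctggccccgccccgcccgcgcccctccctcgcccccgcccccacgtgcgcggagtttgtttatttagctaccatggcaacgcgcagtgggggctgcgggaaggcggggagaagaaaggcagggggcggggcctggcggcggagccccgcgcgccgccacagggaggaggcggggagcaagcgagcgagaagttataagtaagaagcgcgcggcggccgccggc

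Each of the 3 Nr4a promoters held 4 CRE half-sites in these 250 bases, counted on both strands. Their first bases lay at -233, -213, -69 and -40 in Nr4a1, at -200, -144, -123 and -111 in Nr4a2, and at -231, -213, -205 and -147 in Nr4a3, relative to the transcript start. The Klf2, Klf4 and Klf13 promoters held 1 half-site each and the Klf3 promoter held 0. Of all 32851 RefSeq mouse promoters of this length, 17.8% held at least 1 half-site and 0.137% held at least 4. Among the 8815 promoters with 60% to 80% GC, the range into which all 7 fall, those shares were 27.4% and 0.386%. A match describes letters only and says nothing about binding. The GENCODE genes of Nr4a1, Nr4a3, Klf2 and Klf3 begin upstream of the RefSeq start used here, so their windows run into, or for Nr4a1 lie inside, the annotated gene.

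The same windows were searched on both strands for other motifs. The complete CRE, TGACGTCA, which contains the half-site on both strands, was in 0 of the 7 promoters and in 1.55% of all promoters, or 2.81% of those with 60% to 80% GC. The MEF2 consensus was found once each in Klf2, at -118, and in Nr4a2, at -167, against 2.92% of all promoters, or 0.59% of those with 60% to 80% GC. The GC box GGGCGG was in all 7 and in 32.7% of all promoters, or 75.6% of those with 60% to 80% GC. The CACCC box was in 5 of the 7 and in 52% of all promoters, or 65.8% of those with 60% to 80% GC. Matches to AP-1 (TGANTCA), NBRE (AAAGGTCA) and the CArG box were found in 0 of the 7, against 6.75%, 1.34% and 1.47% of all promoters. Among promoters with 60% to 80% GC these 3 shares were 2.95%, 0.454% and 0.964%.

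**Figure D1:**
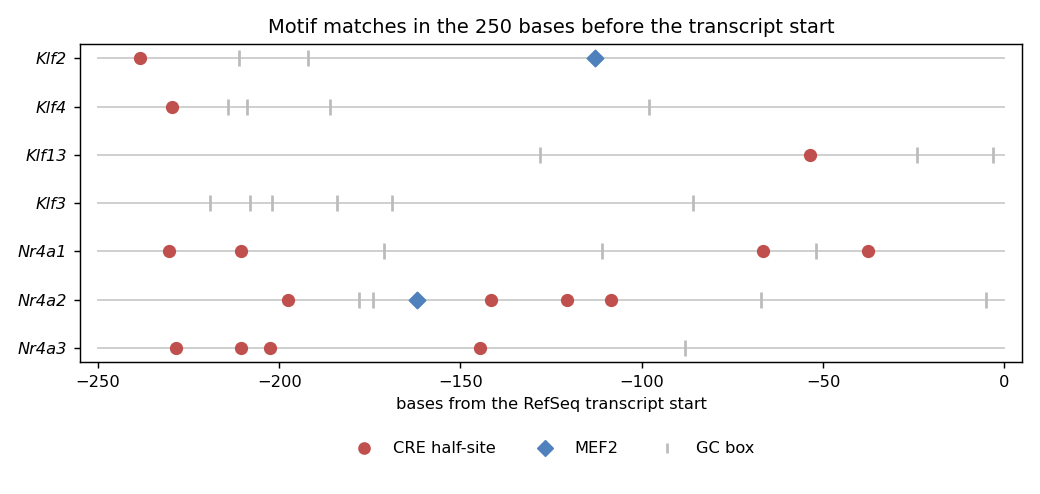
Motif matches in the 250 bases before the RefSeq transcript start of the 7 genes, with distance from the start in bases along the x axis and 1 row per gene; marks show CRE half-sites, MEF2 matches and GC boxes on either strand. The 3 Nr4a rows carry 4 CRE half-sites each, the Klf2, Klf4 and Klf13 rows carry 1, and the Klf3 row carries 0.

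The 9 libraries held 2727092 to 4458688 reads assigned to genes, and 1 read stood for 0.808 to 1.11 of the normalised reads used below. On the third principal component, with 14.2% of the variance, testis replicate 1 and epididymis replicate 3 stood away from the remaining libraries of the same organ, so values without them are given where they bear on a result. The macrophage list (13 of 13 genes measured, none at 0 in any organ) summed to 85.9 to 91.4 reads per 10000 in testis, 118 to 122 in epididymis and 152 to 166 in brain libraries. Microglial markers (8 of 9 measured) summed to 1.80 to 3.19, 13.1 to 18.3 and 54.7 to 61.3 reads per 10000 in the same order of organs. Both lists were above 0 in all 9 libraries, and the microglial markers were highest in the libraries labelled microglia.

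Klf4, which directs monocyte differentiation, had the highest level per kilobase of exon of the 7 genes in testis macrophages, at 2134 ± 454 normalised reads (SD, n = 3). Its normalised read counts were 7915, 6457 and 5146 in testis libraries, 1564, 1842 and 1837 in epididymis libraries, and 2740, 5478 and 2920 in brain libraries. Every testis library lay above every epididymis library, while the highest brain library exceeded the lowest testis library. Mean levels were 6506 ± 1385 in testis, 1748 ± 159 in epididymis and 3712 ± 1531 in brain (SD, n = 3 each), on chr4:55527143-55532466 (minus strand, GENCODE M21, GRCm38). The fitted log2 difference was 1.88 (SE 0.25) for testis against epididymis, 0.86 for testis against brain and -1.02 for epididymis against brain. Without brain replicate 2, the high one, the testis against brain difference was 1.18. It was 0.30 when all libraries were forced to the same distribution by quantile normalisation.

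Klf2, a close relative of Klf4 that keeps naive T cells quiescent, was lowest in the epididymis. Its counts were 2053, 2563 and 2990 in testis libraries, 1112, 1969 and 1322 in epididymis libraries, and 2525, 3589 and 3127 in brain libraries. No epididymis library reached the testis or brain libraries, although the highest, at 1969, came close to the lowest testis library, at 2053. Testis and brain libraries overlapped. Means were 2535 ± 469 in testis, 1467 ± 447 in epididymis and 3080 ± 534 in brain (SD, n = 3 each), from chr8:72319033-72321656 (plus strand). The log2 difference was 0.81 (SE 0.24) for testis against epididymis, -0.28 for testis against brain and -1.10 for epididymis against brain.

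Klf13, known as a regulator of Ccl5 in T lymphocytes, was highest in the testis, and no libraries of different organs overlapped. The counts were 678, 723 and 757 in testis libraries, 320.0, 349 and 403 in epididymis libraries, and 316, 256 and 209.8 in brain libraries. The margin between the lowest epididymis library, at 320.0, and the highest brain library, at 316, was narrow. Its testis libraries differed least among themselves of the 7 genes, with a coefficient of variation of 5.47%. Mean levels were 719 ± 39.4 in testis, 357 ± 42.2 in epididymis and 261 ± 53.3 in brain (SD, n = 3 each), from chr7:63886351-63938915 (minus strand). The log2 difference was 1.01 (SE 0.28) for testis against epididymis, 1.48 for testis against brain and 0.47 for epididymis against brain.

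Klf3, the CtBP-recruiting repressor, was the only one of the 7 genes whose testis libraries all lay below those of both other organs. The counts were 269, 442 and 445 in testis libraries, 750.0, 711 and 861 in epididymis libraries, and 1199.5, 756 and 781 in brain libraries. Epididymis and brain libraries overlapped. Means were 385 ± 100 in testis, 774 ± 78.1 in epididymis and 912 ± 249 in brain (SD, n = 3 each), from chr5:64803388-64832901 (plus strand). The log2 difference was -1.04 (SE 0.28) for testis against epididymis, -1.25 for testis against brain and -0.21 for epididymis against brain. The last became 0.01 without brain replicate 1. Of the 11243 exon bases of Klf3, 404 are shared with Gm20033 on the other strand, and the kit does not mark the strand, so reads there cannot be assigned to either gene.

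**Figure D2:**
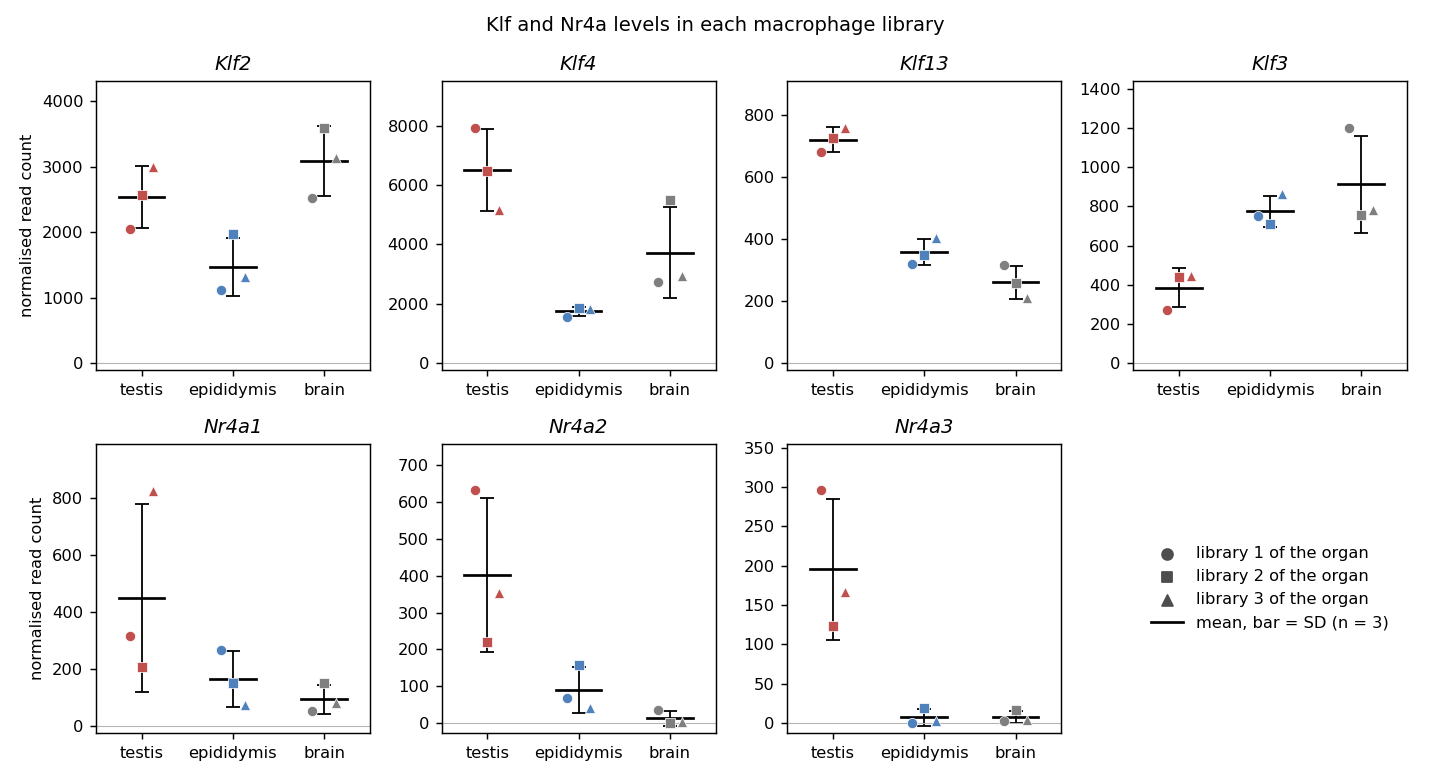
Normalised read count (y axis, linear, own scale per gene) of each of the 7 genes in testis, epididymis and brain macrophages; marks are single libraries, and the line and bar are the mean and SD of 3. Klf4, Klf13 and the Nr4a genes stand highest in testis, Klf3 stands lowest there, and Klf2 is lowest in epididymis.

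Nr4a1, an early response gene of stimulated macrophages, varied the most among testis libraries of the 7 genes. Its counts were 316, 208 and 827 in testis libraries, 267, 152 and 73.3 in epididymis libraries, and 51.9, 150.5 and 80.0 in brain libraries. All testis libraries lay above all brain libraries, whereas testis and epididymis overlapped, and the highest testis library was 3.97 times the lowest. Means were 450.3 ± 330 in testis, 164 ± 97.6 in epididymis and 94.1 ± 50.8 in brain (SD, n = 3 each), from chr15:101254269-101274795 (plus strand). The log2 difference was 1.39 (SE 0.60) for testis against epididymis, 2.13 for testis against brain and 0.74 for epididymis against brain. Without testis replicate 3 the first was 0.83 and the second 1.57. Without epididymis replicate 3 the first was 0.91.

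Nr4a2, best known for its need in dopamine neurons and also induced in activated macrophages, was highest in the testis and lowest in the brain. The counts were 633, 221 and 352 in testis libraries, 68.2, 159 and 39.9 in epididymis libraries, and 34.6, 0 and 1.78 in brain libraries. No libraries of different organs overlapped, though the lowest epididymis library, at 39.9, was close to the highest brain library, at 34.6. The 40 brain reads came almost wholly from replicate 1, with 38, 0 and 2 reads. The 0 in replicate 2, out of 2727092 reads, allows a level of up to 3.34 normalised reads, counting error only. Means were 402 ± 210 in testis, 88.9 ± 62.0 in epididymis and 12.1 ± 19.5 in brain (SD, n = 3 each), from chr2:57106830-57124003 (minus strand).

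The mean of Nr4a2 in testis was 4.52 times that in epididymis and 33.1 times that in brain, and the epididymis mean was 7.33 times the brain mean. On the log2(value + 1) scale the differences were 2.26 (SE 1.17), 6.31 and 4.05. Without brain replicate 1 the testis against brain difference was 7.78, and without brain replicate 2 it was 5.21. With a pseudocount of 10 it was 4.44, and the epididymis against brain difference was 2.32. That difference was 5.52 without brain replicate 1, which left 2 brain reads, and 2.95 without brain replicate 2. The ratio of the epididymis to the brain mean was 4.88 without brain replicate 2 and 5.14 without brain replicate 3. Without testis replicate 1 the testis against epididymis difference was 1.87, and without epididymis replicate 3 it was 1.81.

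Nr4a3, which acts redundantly with Nr4a1 in restraining myeloid leukaemia in mice, was near the detection limit outside the testis. The counts were 296, 124 and 167 in testis libraries, 0, 18.8 and 2.16 in epididymis libraries, and 2.73, 16.7 and 3.56 in brain libraries. The lowest testis library was far above the highest of the other 6, and epididymis and brain overlapped. Reads behind these values were 286, 153 and 195 in testis libraries, 0, 20 and 2 in epididymis libraries and 3, 15 and 4 in brain libraries. The 0 in epididymis replicate 1, out of 3482167 reads, allows up to 2.73 normalised reads. Means were 195 ± 89.8 in testis, 6.97 ± 10.3 in epididymis and 7.67 ± 7.85 in brain (SD, n = 3 each), from chr4:48045153-48086447 (plus strand).

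The testis mean of Nr4a3 was 28.0 times the epididymis mean and 25.5 times the brain mean. The log2 difference was 5.53 (SE 1.48) for testis against epididymis, 4.78 for testis against brain and -0.76 for epididymis against brain. With a pseudocount of 10 the first was 3.67, and without testis replicate 1 it was 5.19. It was 4.54 without epididymis replicate 1 and 6.69 without epididymis replicate 2, which held 20 of the 22 epididymis reads. The testis against brain difference was 5.48 without brain replicate 2, which held 15 of the 22 brain reads. The sign of the epididymis against brain difference was not settled, being 0.24 without epididymis replicate 1 and 0.52 under quantile normalisation.

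Testis libraries all lay above epididymis libraries for 5 of the 7 genes (Klf2, Klf4, Klf13, Nr4a2, Nr4a3) and below them for Klf3, while Nr4a1 overlapped. Over all 11766 genes tested, 19.8% had testis and epididymis libraries fully apart, 11% with testis higher and 8.8% with testis lower. Against brain, testis libraries all lay higher for 4 genes (Klf13 and the 3 Nr4a genes) and lower for Klf3, with Klf2 and Klf4 overlapping, where 30.8% of all genes were apart, 15.9% higher and 14.9% lower. Epididymis libraries all lay above brain libraries for Klf13 and Nr4a2 and below them for Klf2 and Klf4, with 3 genes overlapping, where 22% of all genes were apart, 10.5% higher and 11.5% lower. The median log2 difference of the 7 genes was 1.39 for testis against epididymis, 1.48 for testis against brain and -0.21 for epididymis against brain. The same medians over all genes tested were 0.10, -0.07 and -0.13. These counts and medians describe genes chosen for their levels, and the comparisons share libraries.

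**Figure D3:**
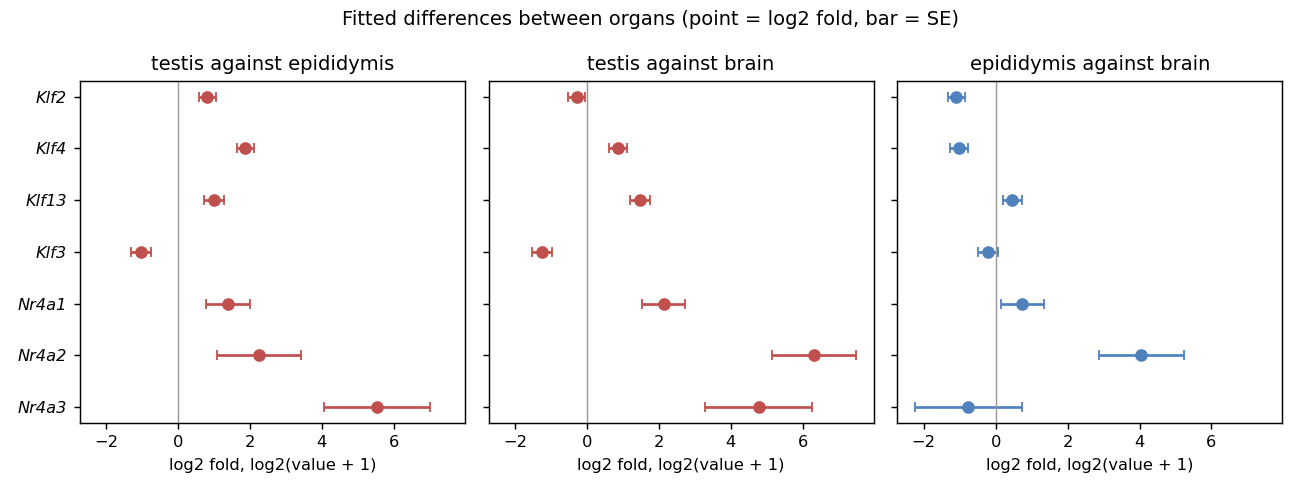
Fitted log2 difference on the log2(value + 1) scale (x axis, bar = SE) of the 7 genes (rows) for testis against epididymis, testis against brain and epididymis against brain. Klf3 is left of 0 in all 3 panels, at -1.04, -1.25 and -0.21, and Nr4a2 and Nr4a3 have the widest bars, with SEs of 1.17 and 1.48.

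Libraries of 1 organ did not rank the genes alike. In testis, replicate 1 was highest for Klf4, Nr4a2 and Nr4a3 and lowest for Klf2, Klf3 and Klf13. Replicate 3 was highest for Klf2, Klf3, Klf13 and Nr4a1 and lowest for Klf4. The coefficient of variation in testis, epididymis and brain was 73.4%, 59.4% and 53.9% for Nr4a1 and 52.4%, 69.7% and 161% for Nr4a2. It was 18.5%, 30.4% and 17.3% for Klf2.

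Ratios between genes of the same library do not depend on how libraries are scaled. The Klf4 to Klf2 read ratio was 3.86, 2.52 and 1.72 in testis libraries, 1.41, 0.936 and 1.39 in epididymis libraries, and 1.09, 1.53 and 0.934 in brain libraries. Every testis ratio exceeded every other one, with means of 2.70 ± 1.08 in testis, 1.24 ± 0.267 in epididymis and 1.18 ± 0.308 in brain (SD, n = 3 each). The Klf13 to Klf3 read ratio was 2.52, 1.64 and 1.70 in testis libraries, 0.427, 0.491 and 0.468 in epididymis libraries, and 0.263, 0.339 and 0.268 in brain libraries. No libraries of different organs overlapped in this ratio, which was above 1 in testis and below 1 elsewhere. Its place in testis follows from the levels above, with Klf13 highest and Klf3 lowest there, so it is no separate result. Both ratios are of genes chosen for their levels, and no share over all gene pairs was worked out.

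Within the Nr4a family, the share of Nr4a3 was higher in every testis library than in any other library. Per kilobase of exon, Nr4a1 made up 47.3% ± 18.6 of the family's summed level in testis, 66.6% ± 15.6 in epididymis and 83.9% ± 18.8 in brain (SD, n = 3 each), and these shares overlapped between organs. The Nr4a3 share was 16.8%, 15.4% and 7.95% in testis libraries, 0%, 3.67% and 1.16% in epididymis libraries, and 1.92%, 6.11% and 2.49% in brain libraries. The summed level was 260 ± 112 normalised reads per kilobase in testis, 69.8 ± 33.8 in epididymis and 31.1 ± 12.6 in brain. The 4 Klf genes together stood at 3636 ± 188, 1484 ± 280 and 3001 ± 746 per kilobase in testis, epididymis and brain, with Klf4 at 58.4%, 39.1% and 39.6% of it and Klf2 at 38.1%, 52.8% and 56.3%.

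**Figure D4:**
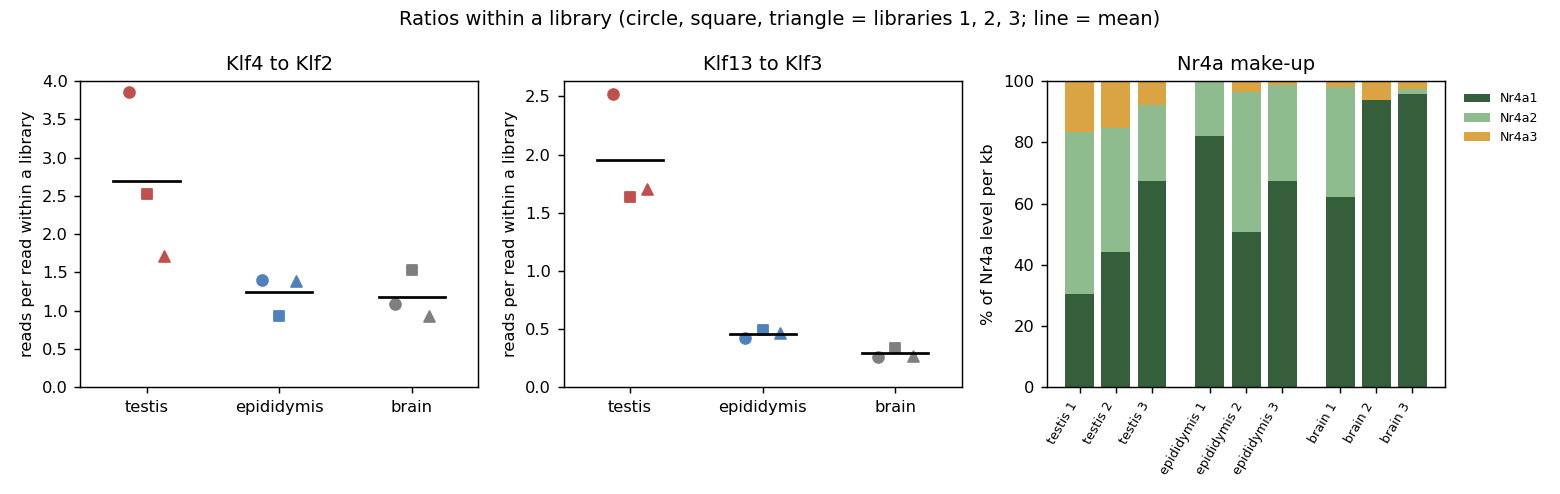
Read ratios within a library (y axis, reads per read) of Klf4 to Klf2 and of Klf13 to Klf3 by organ, with marks for libraries and a line for the mean of 3, beside the share of each Nr4a gene in the family's level per kilobase in each library (y axis, percent). The testis ratios average 2.70 and 1.95, above those of epididymis (1.24 and 0.462) and brain (1.18 and 0.290).

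The genes with the most similar profiles over the 9 libraries were found by the root mean square of the differences in log2(value + 1), each gene centred on its own mean, among 4933 candidates with a mean of at least 100. Klf13 had the closest partners, Ndufaf8 at 0.16, Mink1 at 0.16 and Hmgb2 at 0.20. Klf3 was nearest to Smco1, C5ar2 and Cyth4, at 0.21 each. Klf2 was nearest to Fkbp8, Twistnb and Adss, and Klf4 to Faap100, Bysl and Adgrl1. Nr4a1 was nearest to Impact at 0.42, Txn1 at 0.43 and Trim25 at 0.51. Nr4a2 was nearest to Ccl5 at 0.93, St6galnac2 at 0.98 and Gsn at 0.99. Nr4a3 was nearest to Ccr2, a chemokine receptor of inflammatory monocytes, at 0.92, then Pank1 at 1.21 and Crip1 at 1.27. Ccr2 averaged 1343 ± 197 in testis, 45.3 ± 27.7 in epididymis and 90.4 ± 11.6 in brain (SD, n = 3 each). Between the 7 genes, Klf2 and Klf4 were the most alike, at 0.63, while Nr4a2 and Nr4a3 differed by 2.77. The measure grows with counting error in low genes, so it does not rank low and high genes on equal terms. Nr4a3 was at 0 in epididymis replicate 1, where Nr4a2 was at 68.2. Nr4a2 was at 0 in brain replicate 2, where Nr4a3 was at 16.7.

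Other Klf and Sp genes were tested, since they did not enter the choice. Of 20 listed relatives, 10 had values and 6 passed the filter (Klf7, Klf9, Sp1, Sp2, Sp3 and Sp9), while Klf8, Klf12, Klf14 and Klf16 were too low. limma called 0 of 6 for testis against epididymis and for testis against brain, where 4.39% and 11.7% of all genes were called. At an unadjusted p under 0.05 there were 1 and 2, against 17.5% and 23.4% of all genes, with edgeR 0 and 0, and with DESeq2 1 and 1. For epididymis against brain, Klf7 was the 1 gene called and was lower, against 4.79% of all genes called, 1.8% lower, and 16.4% at an unadjusted p under 0.05. Klf7, a factor of neuron and fat cell development, averaged 267 ± 104 in epididymis and 784 ± 203 in brain (SD, n = 3 each), a log2 difference of -1.60 (SE 0.41, limma adjusted p = 0.037). That call was lost without either of brain replicates 1 and 2 (adjusted p = 0.16 each), without any epididymis replicate or without testis replicate 2. It was also lost without the variance trend (0.23) and with only the 6 libraries compared (0.064).

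Klf9, a glucocorticoid-induced factor of the same subgroup as Klf13, is named here after its values were seen. Its counts were 129, 239 and 242 in testis libraries, 13.6, 23.4 and 35.6 in epididymis libraries, and 46.5, 10.0 and 44.4 in brain libraries. All testis libraries lay above the other 6. Over all genes tested, 11% had all testis libraries above the epididymis libraries and 15.9% above the brain libraries. The log2 difference was 3.06 (SE 0.90, limma adjusted p = 0.071) for testis against epididymis and 2.77 (adjusted p = 0.059) for testis against brain. DESeq2 gave adjusted p-values of 0.0026 and 0.009, while edgeR called Klf9 in neither comparison.

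Genes upstream of Klf2 and Klf4 in the ERK5 and MEF2 pathway held none that limma called higher in the testis. Of 12 listed, 11 were tested, and for testis against brain 2 fell and 0 rose, where 4.83% of all genes were called lower and 6.82% higher. Mef2a averaged 1985 ± 187 in testis and 3854 ± 507 in brain (log2 difference -0.95, limma adjusted p = 0.0033), and Mef2c at 3087 ± 593 and 4760 ± 182 (-0.64, adjusted p = 0.03; SD, n = 3 each). Both are MEF2 transcription factors. Without the variance trend the adjusted p-values were 0.15 and 0.32, and the Mef2c call was lost without any 1 of testis replicates 1 and 3 or of the 3 brain replicates. For testis against brain, 5 of the 11 had an unadjusted limma p under 0.05, where 23.4% of all genes did. Mef2a and Mef2c among them were lower in testis. The others, Map3k2, Hdac4 and Hdac7, were higher there and did not pass (limma adjusted p = 0.1, 0.21 and 0.073). limma called 0 of 11 in the other 2 comparisons, with 1 at an unadjusted p under 0.05 in each and 0 by edgeR and DESeq2. Over all genes, 17.5% for testis against epididymis and 16.4% for epididymis against brain had an unadjusted p under 0.05. Regulators of CREB, NFAT and SRF, which drive Nr4a genes, gave 0 of 14 in all 3 comparisons by limma and edgeR. At an unadjusted p under 0.05 there were 2 for testis against epididymis, 3 for testis against brain and 1 for epididymis against brain. The shares over all genes were 17.5%, 23.4% and 16.4%. DESeq2 called 1, 2 and 0 of these regulators, and the 2 for testis against brain had means that moved in opposite directions.

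TGF-beta signalling, which induces Klf10, held a receptor and an inhibitor that were lower in testis macrophages. Tgfbr1, its type I receptor, had levels of 1274 ± 235 in testis, 2667 ± 500 in epididymis and 4169 ± 210 in brain (SD, n = 3 each). It fell by 1.07 on the log2 scale in testis against epididymis (limma adjusted p = 0.0062) and by 1.73 in testis against brain (adjusted p = 3e-05). Smad7, the inhibitory Smad, averaged 153 ± 93.3 in testis and 1147 ± 291 in brain (log2 difference -3.12, adjusted p = 0.00026; SD, n = 3 each). These were 1 of 7 tested genes for testis against epididymis and 2 of 7 for testis against brain, with 0 higher. Over all genes, 1.9% and 4.83% were called lower in these 2 comparisons. At an unadjusted limma p under 0.05 there were 2 and 4 of 7, against 17.5% and 23.4% of all genes. For epididymis against brain limma called 0 of 7, with 2 at an unadjusted p under 0.05, against 16.4% of all genes, and edgeR called 1 and DESeq2 2. Without the variance trend the Tgfbr1 call for testis against epididymis was lost (adjusted p = 0.21).

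Few partners and turnover genes passed the test. Of 13 partners and corepressors (RXR receptors, CtBP, Sin3A, NCoR and others), limma, edgeR and DESeq2 called 0 in all 3 comparisons, with 3, 1 and 4 genes at an unadjusted limma p under 0.05, where 17.5%, 23.4% and 16.4% of all genes were. Of 5 turnover genes tested, limma called 1 for testis against brain and 1 for epididymis against brain, where 11.7% and 4.79% of all genes were called. The first was Huwe1, a ubiquitin ligase, at 631 ± 116 in testis and 1313 ± 275 in brain (log2 difference -1.05, adjusted p = 0.011; SD, n = 3 each). It was lost without the variance trend (0.15), without testis replicate 3 (0.054) and without brain replicate 2 (0.069). The second was Wwp1, a ubiquitin ligase that targets Klf2 in cultured cells, at 348 ± 135 in epididymis and 75.7 ± 7.65 in brain (2.11, adjusted p = 0.048; SD, n = 3 each), a call lost in 12 of the 19 alternatives. For testis against epididymis limma and edgeR called 0 of 5 and DESeq2 1, with 3 at an unadjusted p under 0.05. Over all genes, limma called 4.39% in that comparison, and 17.5% had an unadjusted p under 0.05.

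Of 6 listed targets of Klf2, 4 were tested. limma called 1 higher in testis against epididymis and the same 1 against brain, where 2.49% and 6.82% of all genes were called higher. At an unadjusted p under 0.05 there were 2 in each, against 17.5% and 23.4% of all genes. Itgb7, an integrin subunit that Klf2 promotes in mouse B cells, stood at 61.1 ± 16.2 in testis, 0 in all 3 epididymis libraries and 2.97 ± 5.15 in brain (SD, n = 3 each). It was at least 20.9-fold higher in testis than in epididymis, against a floor of 3 reads per library. The limma adjusted p was 0.026 against epididymis and 0.037 against brain, and edgeR gave 0.12 and 0.31. Each of these calls was lost without any 1 of several libraries: all but testis replicate 3 of the 6 compared for epididymis, and testis replicates 1 to 3 and brain replicates 1 and 3 for brain. S1pr1, the receptor for lymphocyte exit that Klf2 activates in mouse T cells and the second of those genes, is named after its values were seen. It had counts of 0, 63.8 and 47.0 in testis libraries, 439, 194 and 159.6 in epididymis libraries, and 136, 52.4 and 136 in brain libraries. All testis libraries lay below the epididymis libraries. Neither difference passed the test, at -4.04 (SE 1.23, limma adjusted p = 0.083) for testis against epididymis and -2.78 (adjusted p = 0.19) for testis against brain, and edgeR and DESeq2 did not call it. limma called 0 of 4 for epididymis against brain, with 0 at an unadjusted p under 0.05 and 0 by edgeR and DESeq2. Over all genes, limma called 4.79% there, and 16.4% had an unadjusted p under 0.05.

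Genes of Ly6C-low monocytes, the cells that need Nr4a1, gave 1, 2 and 1 calls of 6 tested for testis against epididymis, testis against brain and epididymis against brain, all higher, where 2.49%, 6.82% and 2.99% of all genes were called higher. Spn, which encodes CD43, had normalised read counts of 685, 1426 and 905 in testis libraries, 14.5, 91.9 and 5.39 in epididymis libraries, and 0, 10.0 and 0.889 in brain libraries. The testis libraries lay above all others. The limma adjusted p was 0.018 for testis against epididymis and 0.00025 for testis against brain. The first was lost without any 1 of the testis libraries or of epididymis replicates 1 and 3 (0.053 to 0.12), and without the variance trend (0.072). Cd36, a scavenger receptor, averaged 410 ± 195 in testis, 652 ± 171 in epididymis and 3.56 ± 5.40 in brain (SD, n = 3 each), with adjusted p-values of 2.1e-05 for testis and 2.2e-05 for epididymis against brain. The uncalled genes went both ways. Against brain, the testis log2 difference was -0.92 for Eno3, -0.72 for Cebpb, 2.58 for Itgal and 1.52 for Pglyrp1. Against epididymis it was -0.73 for Cd36, -0.17 for Pglyrp1, 0.35 for Itgal, 1.61 for Eno3 and 0.89 for Cebpb. Treml4 was below the filter.

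Stress and immediate early genes, which tissue digestion can induce, were mostly higher in testis than in epididymis macrophages, as were 6 of the 7 genes by their means. Of 24 tested, 18 rose and 0 fell in testis against epididymis, and 12 rose and 1 fell in testis against brain. In epididymis against brain 2 rose and 4 fell. Over all genes, 2.49% were called higher and 1.9% lower, 6.82% and 4.83%, and 2.99% and 1.8% in the same comparisons. With each library left out, 13 to 18 rose in testis against epididymis and 9 to 13 in testis against brain, and without the variance trend 1 and 3 did. Without testis replicate 1 the counts were 16 and 12, and without epididymis replicate 3 they were 14 and 12. In epididymis against brain, 0 rose without any 1 of epididymis replicate 1 and brain replicates 1 and 2. The list took 652 to 677 reads per 10000 in testis libraries, 273 to 285 in epididymis libraries and 351 to 522 in brain libraries. Fos, an AP-1 subunit, had counts of 2678, 2680 and 3829 in testis libraries, 845, 741 and 1371 in epididymis libraries, and 1281, 1796 and 1128 in brain libraries. Its testis libraries lay above all others (limma adjusted p = 0.0017 against epididymis and 0.0097 against brain). The second call was lost without testis replicate 3 (0.056), and without the variance trend the adjusted p-values were 0.10 and 0.16. The part of digestion or of such a response in the levels of the 7 genes was not tested.

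The stress genes did not all follow 1 order of organs. Egr1, an immediate early zinc finger factor, had counts of 4930, 4596 and 7933 in testis libraries, 1989, 1698 and 1252 in epididymis libraries, and 6212, 9462 and 10028 in brain libraries. It was higher in testis than in epididymis (log2 difference 1.80, limma adjusted p = 0.00075), lower in epididymis than in brain (-2.37, adjusted p = 3.3e-05), and not called in testis against brain (-0.57, adjusted p = 0.18). Under equal totals and quantile normalisation that difference passed, at -0.80 and -1.14 (adjusted p = 0.043 and 0.0014). Klf2 shared the low place of the epididymis. Dusp1, a MAP kinase phosphatase, had 3765, 4002 and 5555 in testis libraries, 1295, 1066 and 720.2 in epididymis libraries, and 857, 1216 and 1767 in brain libraries (log2 differences of 2.13, adjusted p = 0.00051, and 1.83, adjusted p = 0.00037, for testis against epididymis and against brain). Fos, Egr1, Dusp1 and Nr4a1 all had their highest testis value in replicate 3, whereas Klf4, Nr4a2 and Nr4a3 had theirs in replicate 1. Hspa1a, a heat shock protein, averaged 60724 ± 3755 in testis, 17189 ± 973 in epididymis and 15120 ± 5811 in brain (SD, n = 3 each; limma adjusted p = 0.00035 and 1.6e-05 for testis against each). It has a near-identical copy, Hspa1b, so its own level is uncertain.

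Jun, an AP-1 subunit, and Atf3, which pairs with it, also had their lowest means in the epididymis. Jun averaged 49085 ± 2713 in testis, 18346 ± 1549 in epididymis and 43973 ± 8574 in brain (SD, n = 3 each), with limma adjusted p-values of 0.00041 for testis against epididymis and 0.63 for testis against brain. Under quantile normalisation testis against brain gave a log2 difference of -0.998 (adjusted p = 0.00029). Atf3 averaged 5357 ± 268, 2053 ± 74.2 and 3367 ± 1465 in testis, epididymis and brain (SD, n = 3 each), with limma adjusted p-values of 0.0083 for testis against epididymis and 0.079 for testis against brain. The first call was lost without testis replicate 2 (0.051). Without the variance trend the adjusted p for testis against epididymis was 0.062 for Dusp1, 0.071 for Hspa1a, 0.086 for Egr1, 0.092 for Jun and 0.20 for Atf3.

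**Figure D5:**
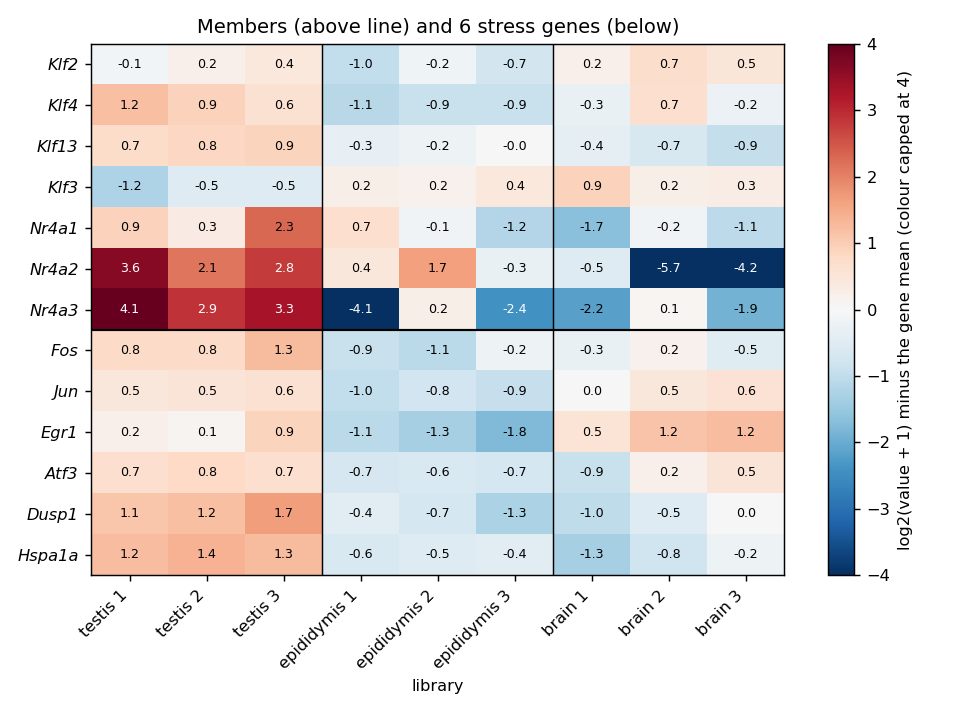
Heat map of log2(value + 1) minus each gene's mean over the 9 libraries (colour and printed number, colour capped at 4), with libraries along the x axis and the 7 genes above and 6 stress genes below the line. The 6 stress genes are above their own mean in all testis libraries and below it in the epididymis, and Klf3 is below its mean in the testis.

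Markers of other cells also moved with organ. Monocyte markers (7 of 9 measured) summed to 10.3 to 12.2 reads per 10000 in testis, 0.549 to 1.26 in epididymis, where Plac8 was at 0, and 0.469 to 0.675 in brain. S100a6 and Ccr2 had the highest testis means of that list, at 1816 and 1343 normalised reads. Plac8 went the other way, averaging 0.570 in testis and 5.16 in brain. T and NK cell markers (9 of 15 measured) summed to 1.97 to 2.72 in testis, 0.325 to 0.637 in epididymis, with Lck and Cd8a at 0, and 0.284 to 0.510 in brain, with Cd3e, Lck, Cd8a and Nkg7 at 0. Cd4 of that list was lowest in testis, with means of 4.31, 34.4 and 13.9 in testis, epididymis and brain. Leydig cell markers (7 of 8 measured) summed to 3.97 to 10.5 in testis, 0.0910 to 0.643 in epididymis and 0.249 to 0.336 in brain. Insl3, Cyp17a1, Hsd3b1, Hsd3b6 and Hsd17b3 were at 0 in epididymis, and Cyp17a1, Hsd3b1 and Hsd3b6 were at 0 in brain. Germ cell markers (8 of 10 measured) summed to 2.75 to 5.57 in testis, 1.56 to 3.32 in epididymis and 0.00284 to 0.0560 in brain, with Prm1, Tnp2, Odf1 and Meig1 at 0 there. Tnp2 and Sycp3 had higher means in epididymis, at 88.6 and 28.4, than in testis, at 59.2 and 10.6. Epididymal epithelium markers (9 of 11 measured) summed to 5.13 to 8.58 in testis, 5.05 to 7.54 in epididymis and 0.458 to 1.03 in brain. Most of each sum was Cd52, whose means were 2338 ± 578, 1520 ± 305 and 178 ± 76.8 normalised reads in the same order (SD, n = 3 each). Every other marker measured had its highest mean in epididymis. Defb20, for instance, averaged 0, 217 and 0, and Adam7 5.39, 194 and 0. Of the listed markers, Defb20, Lcn5, Lcn8, Lcn9 and Spink8 were at 0 in testis, and these with Cst8 and Adam7 were at 0 in brain. Peritubular and fibroblast markers (8 of 9 measured) summed to 0.733 to 0.938 in testis, 0.152 to 0.643 in epididymis, with Myh11, Tagln and Col3a1 at 0, and 0.0660 to 0.114 in brain, with Myh11, Col3a1 and Dcn at 0. Dendritic cell markers (5 of 7 measured, with Siglech also on the microglial list) summed to 1.48 to 2.08 in testis, 1.13 to 3.01 in epididymis, where Ccr7 was at 0, and 8.74 to 10.4 in brain. Siglech made up most of the epididymis and brain sums, with means of 147 ± 39.9, 449 ± 298 and 2702 ± 260 in the 3 organs (SD, n = 3 each). Of the others, Xcr1, Flt3 and Ccr7 had their highest means in testis, such as Xcr1 at 356, 116 and 102, and Zbtb46 in epididymis. Endothelial markers (7 of 12 measured) summed to 0.581 to 1.05 in testis, 0.398 to 0.803 in epididymis and 1.17 to 1.76 in brain. Neutrophil markers (8 of 10 measured) summed to 0.424 to 0.730, 0.610 to 1.28 and 1.47 to 2.76 in the same order. Neuron and glia markers (8 of 12 measured) summed to 0.710 to 1.62, 0.438 to 0.991 and 2.43 to 3.12. These sums were highest in brain, though Flt1, Cxcr2 and Mbp had their highest means in testis.

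The genes of the 2 surface proteins that the gate excluded were not at 0 in every organ. Itgax, which encodes CD11c, had normalised read counts of 0, 0 and 21.4 in testis libraries, 265, 209 and 294 in epididymis libraries, and 0 in all 3 brain libraries. Ly6c2, which encodes a Ly6C protein, had 101, 63.0 and 80.4 in testis libraries, 0, 0.938 and 32.3 in epididymis libraries, and 8.20, 46.8 and 6.22 in brain libraries. Itgax was thus high in the epididymis libraries and Ly6c2 in the testis libraries. In these bulk samples fewer cells of a type and less RNA per cell cannot be told apart, and the part of these cells in the levels of the 7 genes was not tested.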

How the data were processed

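Counts of reads per gene were divided by a factor per library in the deposited table, so its values are a signal on the scale of normalised reads. The authors' tools are listed per the submitters' processing notes as CASAVA 1.8, Bowtie2 2.2.1, Partek 6.6 and DESeq2, with the mm10 genome, and the role of each is not given in the sources used here. Libraries were made from total RNA with a TruSeq v2 kit, which does not mark strand, per the labels' protocols. Per the same protocols, testis and epididymis suspensions were pooled, and it could not be worked out if cells of both organs ever shared a tube, so samples were grouped by their labels alone. Whole reads were recovered by dividing by the value of 1 read, and 100% of values came out whole within 1e-06 reads. No pair of libraries of an organ agreed within counting error, which does not show that they were separate samples, and each was counted as 1 replicate.

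The 11766 genes that reached 10 normalised reads in 3 or more libraries were tested with limma 3.58.1 (R 4.3.3) on log2(value + 1) with 1 mean per organ and a variance trend, called at a Benjamini-Hochberg adjusted p under 0.05. edgeR 4.0.16 and DESeq2 1.42.0 were run on the recovered reads, and for testis against epididymis called 366 and 788 genes. The filter can remove low genes of a family, and for low genes a fold on the log2(value + 1) scale depends on the pseudocount and can lie below or above the ratio of means. Levels per kilobase used exon lengths of GENCODE M21. Counts of 0 were read against a floor of 3 reads, which covers counting error only, since reads without molecular identifiers are not independent molecules.

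The genes and all lists were chosen with earlier results of these data known. Text names the 9 genes, list genes that passed a test or were not tested, the 3 genes most like each of the 7 with values, and 6 stress genes. Klf9, S1pr1, Map3k2, Hdac4 and Hdac7 were added after their values were seen. So were the uncalled Ly6C-low monocyte genes and the means of single markers of other cells. Alternatives were other pseudocounts, filters, scalings, variance models, libraries and tests.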

Additional observations from a re-analysis of the deposited data

How the results depend on the processing

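No paired analysis was possible because the labels give no replicate numbers that link libraries of different organs. The number of genes called for testis against epididymis was 516, and became 192 without the variance trend, 250 with only the 6 libraries compared and 788 with DESeq2, and 278 to 442 with each library left out. For testis against brain 1371 became 837 without the trend and 827 to 1457 with a library left out. For epididymis against brain 564 became 306 without the trend, 910 with DESeq2 and 320 to 597 with a library left out. Equal library totals moved the median of all genes by -0.15, -0.22 and -0.06 in the 3 comparisons. They also turned the calls for testis against epididymis to 227 higher and 307 lower, from 293 and 223, and for testis against brain to 656 and 773, from 803 and 568. Quantile normalisation gave 223 higher and 256 lower for testis against epididymis.

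Calls among the Klf and Sp relatives went from 0 to 1 for testis against epididymis with a pseudocount of 10 and with DESeq2, and for testis against brain with those and with only the 6 libraries compared, and were 0 to 1 in both with a library left out. The 1 call for epididymis against brain became 0 without the variance trend and with only the 6 libraries, and was 0 to 1 with a library left out. The median log2 difference of the 7 genes ran from 0.97 to 1.82 for testis against epididymis with a library left out, from 1.33 to 1.63 for testis against brain and from -0.30 to 0.24 for epididymis against brain, where quantile normalisation gave 0.42. Of 399 differences of single genes among the 7 under alternatives, 393 moved by less than the gene's own residual SD between libraries on the log2 scale, 0.20 for Klf13 to 1.69 for Nr4a2. The 6 others were Nr4a3 at 3.67 and Klf4 at 1.47 for testis against epididymis, Nr4a2 at 4.44, Klf13 at 1.25 and Klf4 at 0.30 for testis against brain, and Nr4a2 at 2.32 for epididymis against brain. Jun changed sign for testis against brain under quantile normalisation, at -0.998. Of the other named genes, 65 values lost and 13 gained a call across all alternatives. The cause of these shifts was not tested. At this depth Nr4a2 in brain and Nr4a3 in epididymis and brain rest on 40, 22 and 22 reads.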
